A study of Mus musculus with 6 samples.

Results

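The collagen chain genes of the proximal incisor are described here, chosen as the protein-coding genes of the deposited count table whose symbol has the form Col, number, a, number. There were 44 such genes among 25700, and all 44 passed the filter on low counts. RNA was sequenced from tissue that the labels call dental mesenchyme, in C57BL/6 mice aged 5 weeks, 3 of each of 2 genotypes. Conditional knockout mice (cKO) had the genotype Gli1-CreERT2;Runx2fl/fl. In these mice tamoxifen activates Cre recombinase in cells that express Gli1, so that Runx2 is deleted in those cells. Control mice were Runx2fl/fl without Cre. Per the labels, all mice were given tamoxifen (1.5 mg per 10 g body weight) for 3 days when 1 month old and were sampled 1 week later. Controls carried no Cre, so loss of Runx2 cannot be told apart from effects of the Gli1-CreERT2 allele itself or of activated Cre.

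Collagens are secreted trimers whose chains wind around each other along glycine-rich repeats. Fibrillar collagens form the rope-like fibrils of dentin, bone and ligament, and the FACIT collagens (fibril-associated collagens with interrupted triple helices) sit on the surface of those fibrils. Type IV collagen makes the sheet of basement membranes, type VI forms beaded microfibrils around cells, and types VIII and X form hexagonal networks. Odontoblasts, the dentin-forming cells of the tooth, secrete a matrix rich in type I collagen, and Runx2 is a transcription factor of bone- and tooth-forming mesenchyme. The question put to the data was which chains and which structural classes differed between cKO and control incisors.

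The libraries held 62415177 to 66366749 counts in cKO mice and 53525185 to 66694240 in controls. Runx2 measured 62.6, 54 and 49.0 CPM (counts-per-million, scaled between libraries) in cKO mice and 79.7, 77.7 and 81.2 CPM in controls; it passed DESeq2 (adjusted p = 0.000128) but not edgeR's quasi-likelihood test (adjusted p = 0.0714). Gli1 measured 75.0, 77.9 and 70.6 CPM in cKO mice and 159, 89.7 and 207 CPM in controls (edgeR adjusted p = 0.131; DESeq2 adjusted p = 0.00185). The markers Msx1, Pax9, Prrx1 and Twist1 of dental mesenchyme were present in every mouse, while Barx1 stayed under 2 CPM. These 5 summed to 412 to 469 CPM in cKO mice and 282 to 361 CPM in controls. Epithelial markers were present too, with 1636 to 2708 CPM summed over 4 genes in cKO mice and 1627 to 2141 CPM in controls. Control 1 was male by its Xist level of 0.596 CPM, the other mice having at least 2865 CPM, and it also held skeletal muscle RNA (178 CPM summed over 5 markers, against at most 14.3 CPM in the others). Late enamel genes, made by ameloblasts at the end of enamel formation, summed to 2634, 1451 and 1112 CPM in the cKO mice and to 112, 1798 and 98.1 CPM in the controls, so that control 2 lay with the cKO mice. Neutrophil markers summed to 36.9, 16.0 and 2.03 CPM in the cKO mice and to at most 1.91 CPM in controls.

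No collagen gene passed the threshold of 0.05 over all 19264 tested genes (edgeR quasi-likelihood test with Benjamini-Hochberg adjustment, lowest adjusted p = 0.0610), where the test called 0.026% of all genes, 0.0208% higher and 0.00519% lower. By DESeq2 13 of the 44 passed, 7 higher and 6 lower in cKO mice, and of the genes for which it gave an adjusted p DESeq2 called 7.48%, 3.93% higher and 3.55% lower. With the level of late enamel genes as a covariate DESeq2 called 1 of the 44, Col6a4, and 81 of all genes, against 1327 without it. That level was itself high in all cKO mice and, of the controls, only in control 2. The unadjusted edgeR p was under 0.05 for 11 higher and 9 lower genes, or 45.5% of the collagen genes, against 17.3% of all genes, 8.71% higher and 8.55% lower. The cKO and control values did not overlap for 16 of the 44 genes, 8 in each direction, or 36.4%, against 23.1% of all genes, 11.1% higher and 12% lower. The median log2 fold change of the 44 genes was 0.16, with 26 above 0 and 18 below, beside a median of 4.8e-05 for all genes. The mice of a group are separate animals, and p-values set the difference between groups against the spread between mice.

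**Figure D1:**
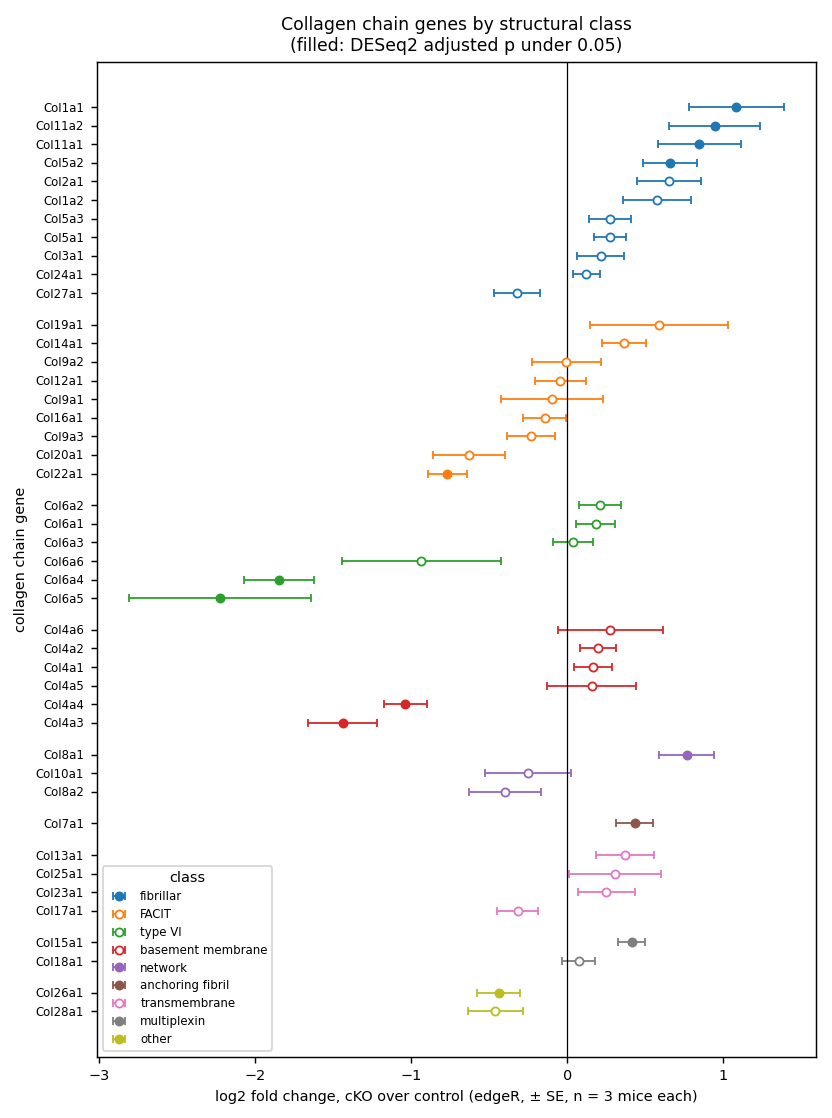
Log2 fold change of each of the 44 collagen chain genes, cKO over control (x axis), by structural class (y axis), with bars for ± SE from edgeR and 3 mice a group. Filled points passed DESeq2 at 0.05 and none passed edgeR; 10 of 11 fibrillar chains lie above 0, while Col6a4, Col6a5, Col4a3 and Col4a4 lie at or below -1.04.

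The classes differed in where their chains lay. Of the 11 fibrillar genes 10 were above 0, with a median log2 fold change of 0.58. The cKO and control values did not overlap for 5 of them (45.5%), all higher in cKO mice. Of all genes 11.1% were higher and 12% lower without overlap. Without cKO 3 the fibrillar median was 0.36. The 9 FACIT genes had a median of -0.10, with 2 above 0. Type VI had a median of -0.45 with 3 of 6 above 0, and type IV, the basement membrane class, 0.16 with 4 of 6 above 0. The type VI median is the midpoint of Col6a3 (0.04) and Col6a6 (-0.93), and no chain lay near it. The network class of Col8a1, Col8a2 and Col10a1 had 1 of 3 above 0 and a median of -0.25. In types IV, VI and VIII chains of 1 collagen type lay on both sides of 0. Single mice moved these medians, to -0.079 for type VI without control 1, to -0.060 for type IV without cKO 3 and to 0.048 for FACIT without cKO 1. These medians are descriptions, and differences between classes were not tested.

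Type I collagen had the largest amounts of RNA. Col1a1 (chr11:94936224-94953042, build mm10), the major chain of the type I trimer, measured 24035, 16775 and 31831 CPM in cKO mice and 14617, 11514 and 8127 CPM in controls. All cKO mice lay above all controls, although cKO 2 lay closer to control 1 than to cKO 3. The log2 fold change was 1.08 (SE 0.30), a 2.12-fold higher level (edgeR adjusted p = 0.146; DESeq2 adjusted p = 0.00105). The DESeq2 call was lost without cKO 1, control 2 or control 3. Its partner chain Col1a2 (chr6:4504814-4541544) measured 4884, 5043 and 7376 CPM in cKO mice and 4618, 3964 and 3030 CPM in controls, again without overlap but with cKO 1 just above control 1. Its log2 fold change was 0.58 (SE 0.22; edgeR adjusted p = 0.248; DESeq2 adjusted p = 0.0517). The window of RefSeq (build GRCm38.p6) from 250 bases before to 50 after the start of Col1a2, chr6:4505368-4505667 on the plus strand, is shown because type I genes are known to carry CCAAT boxes near their start. Capitals mark CCAAT on either strand (CCAAT or ATTGG).

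Col1a2: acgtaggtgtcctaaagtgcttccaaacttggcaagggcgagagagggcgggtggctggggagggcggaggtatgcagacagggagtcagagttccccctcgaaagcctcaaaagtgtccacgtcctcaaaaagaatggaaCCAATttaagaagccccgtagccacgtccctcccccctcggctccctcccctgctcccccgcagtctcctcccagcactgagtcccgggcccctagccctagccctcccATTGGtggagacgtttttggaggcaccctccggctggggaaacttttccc

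It holds 2 such matches and no match to the core letters bound by RUNX factors (TGTGGT, or ACCACA on the other strand). CCAAT letters stood in 37.4% of all 32851 promoter windows of that length and in 34.2% of the 38 collagen windows, which cover 35 of the 44 genes. RUNX letters stood in 16.8% of all windows and in 3 of the 38 collagen windows (7.89%), those of Col8a1, Col17a1 and Col18a1.

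Chains that build into type I fibrils lay above 0 too, to unequal extents. Col5a2 (chr1:45374321-45503282), a chain of the type V collagen that nucleates type I fibrils, measured 1866, 1394 and 1893 CPM in cKO mice and 1238, 1161 and 866 CPM in controls, with no overlap. Its log2 fold change was 0.66 (SE 0.18; edgeR adjusted p = 0.135; DESeq2 adjusted p = 0.00372), and the DESeq2 call was lost without cKO 3. Its partner chain Col5a1 differed less, with 432, 387 and 482 CPM in cKO mice against 387, 363 and 327 CPM in controls (log2 fold change 0.27, SE 0.10; edgeR adjusted p = 0.243), so cKO 2 and control 1 were nearly equal. The ratio of Col5a2 to Col5a1 counts was 3.95 ± 0.36 in cKO mice and 3.01 ± 0.319 in controls (SD, n = 3 each) and did not overlap.

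Type XI chains, the counterparts of type V in cartilage and also known from developing bone and tooth, were among the higher fibrillar genes. Col11a2 (chr17:34039437-34066685) measured 1381, 872 and 1712 CPM in cKO mice and 913, 634 and 515 CPM in controls. Control 1 lay above cKO 2, so the groups overlapped. The log2 fold change was 0.94 (SE 0.29; edgeR adjusted p = 0.175; DESeq2 adjusted p = 0.00824). Col11a1 (chr3:114030540-114220718) had the same order of mice, with 700.0, 495 and 928 CPM in cKO mice and 506, 380.2 and 295 CPM in controls (log2 fold change 0.85, SE 0.27; edgeR adjusted p = 0.185; DESeq2 adjusted p = 0.0133). The DESeq2 call of both was lost without cKO 1, cKO 3, control 2 or control 3. The ratio of Col11a2 to Col11a1 counts was 1.86 ± 0.106 in cKO mice and 1.74 ± 0.0686 in controls, and the groups overlapped.

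The other fibrillar genes were mixed. Col3a1, the collagen of pliable connective tissue and vessels, measured 3640, 3374 and 2667 CPM in cKO mice and 2797, 3073 and 2472 CPM in controls (log2 fold change 0.21, SE 0.15; edgeR adjusted p = 0.517), and the groups overlapped. It neighbours Col5a2 on chromosome 1, with 24614 bases between the genes, on opposite strands. Col2a1, the main fibrillar collagen of cartilage, was low, at 3.22, 3.54 and 4.63 CPM in cKO mice and 1.90, 2.59 and 2.75 CPM in controls (log2 fold change 0.65, SE 0.21; edgeR adjusted p = 0.185). Markers of cartilage (Acan, Comp, Matn3 and Sox9) summed to 115 to 162 CPM in cKO mice and 124 to 144 CPM in controls, with Matn3 under 1 CPM in every mouse. Col27a1, a minor fibrillar collagen of cartilage and tooth, was the 1 fibrillar gene below 0 (log2 fold change -0.32, SE 0.15; edgeR adjusted p = 0.315). Col5a3 and Col24a1 had log2 fold changes of 0.28 and 0.12 with overlapping groups.

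**Figure D2:**
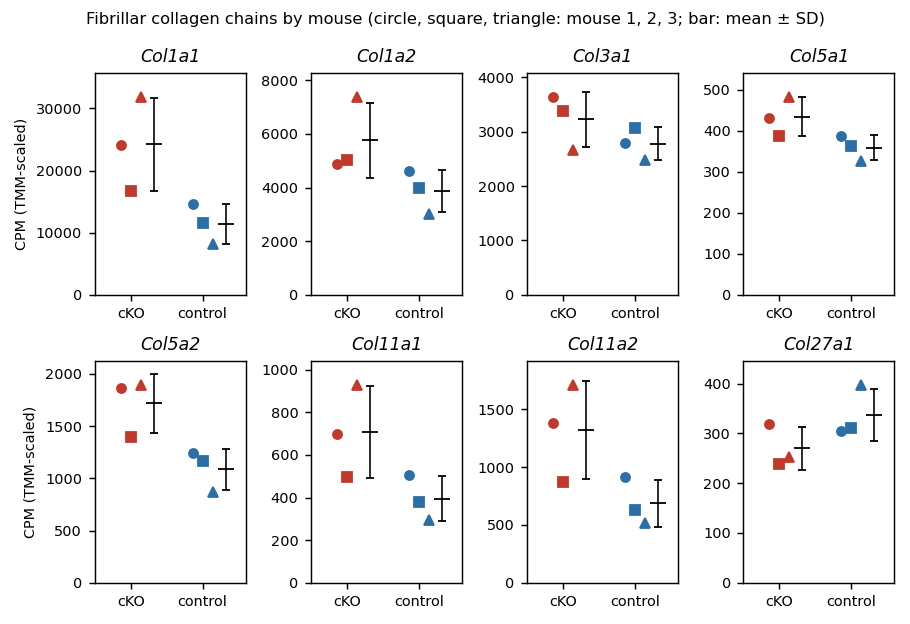
CPM (y axis, from 0) of 8 fibrillar chains in each mouse, cKO left of control, with black bars for the mean ± SD of 3 mice. Col1a1, Col1a2, Col5a1 and Col5a2 do not overlap between groups, cKO 2 (red square) is the lowest cKO mouse for Col1a1, Col5a1, Col5a2, Col11a1 and Col11a2, and Col27a1 goes the other way.

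Col1a1 weighed heavily on the collagen total. All 44 genes together took 4.39%, 3.45% and 5.33% of the library in cKO mice and 3.14%, 2.78% and 2.12% in controls. Without Col1a1 the remaining 43 took 1.97% ± 0.199 in cKO mice and 1.54% ± 0.193 in controls (SD, n = 3 each). Col1a1 made up 54.4% ± 5.37 of all collagen counts in cKO mice and 42.0% ± 4.45 in controls, a difference of 12.4 percentage points (two-sided exact permutation test over mice, p = 0.10, the smallest that 3 against 3 can give). The share of Col1a2 was 13.2% ± 1.77 in cKO mice and 14.4% ± 0.342 in controls (exact permutation p = 0.40). The ratio of Col1a1 to Col1a2 counts was 4.92, 3.33 and 4.32 in cKO mice and 3.17, 2.90 and 2.68 in controls, so that every cKO mouse lay above every control; it was singled out after the values were seen.

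Shares add up to 100%, so a higher share of Col1a1 lowers those of the other chains. FACIT chains took 3.29% ± 0.492 of collagen counts in cKO mice and 5.66% ± 0.50 in controls, and type VI chains 3.70% ± 0.549 and 5.47% ± 0.645 (exact permutation p = 0.10 for each). Type IV chains took 4.18% ± 0.966 in cKO mice and 5.99% ± 1.14 in controls (exact permutation p = 0.20). All fibrillar chains took 85.6% ± 2.46 and 77.8% ± 3.22 (exact permutation p = 0.10), and with counts divided by transcript length 84.4% ± 2.5 and 76.0% ± 3.45. The fibrillar difference in counts was 7.8 percentage points, less than the 12.4 points of Col1a1 alone. The other fibrillar chains together thus took a smaller share in cKO mice.

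**Figure D3:**
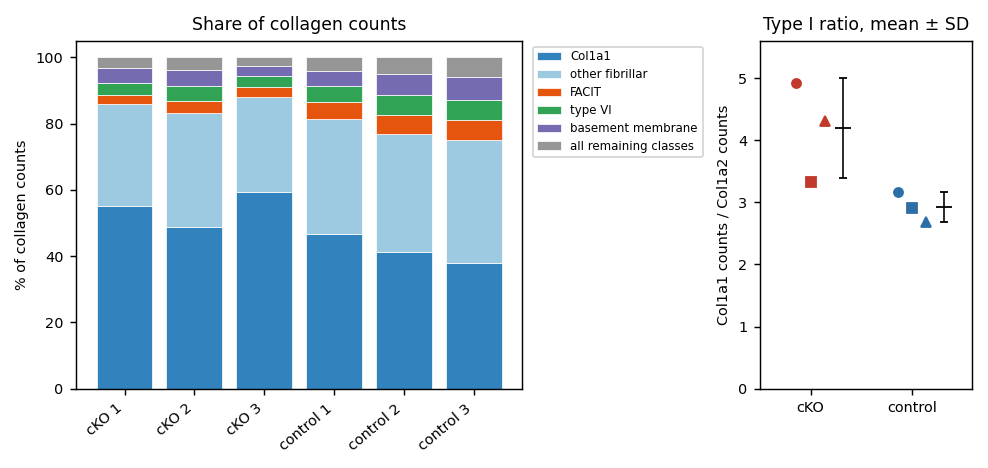
Left, the share of all collagen counts (y axis, percent) taken by Col1a1, the other fibrillar chains, FACIT, type VI, basement membrane and all remaining classes in each mouse. Right, the ratio of Col1a1 to Col1a2 counts per mouse with mean ± SD of 3 mice; the cKO values run from 3.33 to 4.92 and the control values from 2.68 to 3.17.

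Per kilobase of transcript, which allows levels of different genes to be compared, the 5 highest collagen genes over all mice were fibrillar. Col1a1 reached 4083 ± 1270 CPM per kb in cKO mice and 1926 ± 547 CPM per kb in controls. Col1a2 reached 1078 ± 261 and 724 ± 149 CPM per kb, and Col3a1 580.0 ± 90.4 and 499.8 ± 54.1 CPM per kb, in cKO and control mice. Col5a2 and Col11a2 came next, then Col6a2 and Col4a1. At the lower end stood Col4a3 and Col19a1, each under 0.3 CPM per kb in both groups.

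Markers of odontoblasts moved with the fibrillar genes. Dspp, the gene of the main dentin phosphoprotein precursor, measured 11717, 5777 and 11052 CPM in cKO mice and 4517, 3121 and 2630 CPM in controls. Phex measured 686, 428 and 924 CPM in cKO mice and 336, 202 and 133 CPM in controls, and Dmp1 97.6, 104 and 206 CPM against 37.6, 38.5 and 14.6 CPM. The groups did not overlap for any of the 3 odontoblast markers, against 23.1% of all genes without overlap. None passed edgeR (adjusted p from 0.0878 to 0.115), while all 3 passed DESeq2 (adjusted p from 0.00167 to 0.0204), which called 7.48% of the genes it gave an adjusted p. Ordered by the mean log2 level of these markers the mice ran cKO 3, cKO 1, cKO 2, control 1, control 2, control 3. Dspp and Dmp1 singly did not have that order. Col1a1, Col5a1 and Col5a2 were the 3 of 44 genes with that same order, and its share among all genes was not counted. The mean log2 level of the osteoblast markers gave the same order of mice, so the order is not particular to odontoblast markers. Among osteoblast markers Bglap measured 2431, 1905 and 3603 CPM in cKO mice and 1581, 901 and 754 CPM in controls. Ibsp measured 117, 90.4 and 101 CPM against 60.9, 87.2 and 84.7 CPM, while Sp7 measured 122, 119 and 127 CPM against 144, 110.1 and 112 CPM. The groups overlapped for Sp7 but not for Bglap and Ibsp. Markers of fibroblasts and periodontal ligament (Postn, Dcn, Mkx, Tnmd and Scx) summed to 1110 to 1264 CPM in cKO mice and 718 to 854 CPM in controls, with no overlap for 4 of the 5 genes and Scx at most 2.39 CPM. In bulk tissue, more cells of a type and more RNA per cell cannot be told apart, and the part of these cell types in the collagen values was not tested.

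Among the FACIT genes, Col22a1 and Col20a1 were the 2 whose groups did not overlap, both lower in cKO mice. They are 22.2% of the class, near the 23.1% of all genes without overlap. Col22a1 (chr15:71795795-72034227), a collagen of tissue junctions such as that of muscle and tendon, measured 35.7, 34.2 and 31.0 CPM in cKO mice and 47.4, 57.8 and 66.4 CPM in controls. The groups were well apart, with a log2 fold change of -0.77 (SE 0.12), or 0.588 times the control level (edgeR adjusted p = 0.0669; DESeq2 adjusted p = 7.99e-06). The DESeq2 call held in all 6 fits that left out a mouse. Control 1, which held the skeletal muscle RNA, had the lowest Col22a1 of the controls, and the part of muscle RNA in these values was not tested. Col20a1 had the same order of mice at a low level, 2.49, 1.84 and 1.73 CPM in cKO mice and 2.57, 2.78 and 4.02 CPM in controls (log2 fold change -0.63, SE 0.23; edgeR adjusted p = 0.234).

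The abundant FACIT genes gave no such separation. Col12a1, a long FACIT chain of ligaments and tendons, measured 611, 671 and 816 CPM in cKO mice and 840.2, 749 and 574 CPM in controls (log2 fold change -0.04, SE 0.17; edgeR adjusted p = 0.918). Col9a2, a type IX chain known from cartilage, measured 232, 274 and 386 CPM in cKO mice and 318, 352 and 227 CPM in controls, with a log2 fold change of -0.01 (SE 0.22) whose sign turned under 8 of 14 alternatives. Its type IX partners Col9a1 and Col9a3 had log2 fold changes of -0.10 and -0.23 and overlapped too. Col16a1 stood at -0.15 (SE 0.14). Above 0 were Col14a1, a FACIT of dense connective tissue (0.36, SE 0.14; edgeR adjusted p = 0.250), and Col19a1, which had under 1 CPM in every mouse (0.59, SE 0.44).

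Type VI collagen split into its common and its minor chains. The common chains form 1 microfibril and were nearly level between groups. Col6a1 measured 563, 564 and 673 CPM in cKO mice and 537, 598 and 451 CPM in controls (log2 fold change 0.18, SE 0.13; edgeR adjusted p = 0.511). Col6a2 measured 583, 585 and 706 CPM in cKO mice and 547, 618 and 455 CPM in controls (0.21, SE 0.13; edgeR adjusted p = 0.471), and Col6a3 had a log2 fold change of 0.04 (SE 0.13). Col6a1 and Col6a2 lie on the same strand of chromosome 10, and their counts kept a nearly fixed ratio, with Col6a2 at 1.04 ± 0.00684 times Col6a1 in cKO mice and 1.02 ± 0.0112 times in controls.

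The minor chains Col6a4, Col6a5 and Col6a6, which are related to Col6a3 and lie in a row on chromosome 9, were all below 0. Col6a4 (chr9:105989454-106096783) measured 7.40, 5.15 and 5.76 CPM in cKO mice and 20.1, 17.1 and 28.8 CPM in controls. Every cKO mouse lay far below every control, with a log2 fold change of -1.85 (SE 0.22), or 0.278 times the control level. It had the lowest p of the 44 genes (edgeR adjusted p = 0.0610; DESeq2 adjusted p = 3.11e-13). It was the 1 collagen gene that passed edgeR when a mouse was left out, without control 2 (log2 fold change -2.0, adjusted p = 0.0381), and it passed DESeq2 in all 8 refits, including that with late enamel genes as a covariate. Its start window in RefSeq (GRCm38.p6, chr9:106096642-106096941, minus strand) is shown as that of the collagen gene with the lowest p, with CCAAT in capitals and no match to the RUNX letters.

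Col6a4: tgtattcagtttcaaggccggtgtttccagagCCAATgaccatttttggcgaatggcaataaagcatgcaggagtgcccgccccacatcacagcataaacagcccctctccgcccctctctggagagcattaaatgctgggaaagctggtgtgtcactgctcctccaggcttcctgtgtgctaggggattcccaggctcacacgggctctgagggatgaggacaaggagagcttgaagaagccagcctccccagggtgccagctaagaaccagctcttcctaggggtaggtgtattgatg

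Col6a5 (chr9:105856078-105960643) measured 4.87, 4.42 and 1.31 CPM in cKO mice and 24.7, 7.04 and 17.9 CPM in controls. The groups did not overlap, but control 2 was close to the cKO mice, and cKO 3 was lower than the rest. The log2 fold change was -2.22 (SE 0.58; edgeR adjusted p = 0.132; DESeq2 adjusted p = 0.0330), and the DESeq2 call was lost without any mouse other than control 2 and with sex as a covariate. Col6a6 measured 1.6, 1.14 and 0.689 CPM in cKO mice and 3.95, 1.31 and 1.33 CPM in controls (-0.93, SE 0.51; edgeR adjusted p = 0.398), with control 1 highest. Without control 1, which held skeletal muscle RNA and was also the only male, Col6a6 was at -0.20. Muscle RNA, sex and the single mouse cannot be told apart there, and their part was not tested. The deposited counts of Col6a5 and Col6a6 were fractions in all 6 mice but added up to whole numbers in all 6 (tolerance 0.02), so reads were shared between these 2 genes and their single values are uncertain.

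Type IV collagen was split in the same way, between an abundant pair and a scarce pair. Col4a1 and Col4a2, which build the common basement membrane trimer, measured 1130, 941 and 892 CPM and 764, 629.6 and 596 CPM in cKO mice. In controls Col4a1 measured 807, 984 and 853 CPM and Col4a2 542, 629.6 and 562 CPM. The log2 fold changes were 0.16 (SE 0.12) and 0.20 (SE 0.11), with overlapping groups (edgeR adjusted p = 0.545 and 0.425). The genes start back to back on chromosome 8, their first exons overlapping by 22 bases, and both had the same order of mice. The ratio of Col4a2 to Col4a1 counts was 0.671 ± 0.00404 in cKO mice and 0.657 ± 0.0162 in controls. The RefSeq window of Col4a2 (GRCm38.p6, chr8:11312555-11312854, plus strand), which also holds the start of Col4a1, is shown as the sequence the pair shares, with CCAAT in capitals and no match to the RUNX letters.

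Col4a2: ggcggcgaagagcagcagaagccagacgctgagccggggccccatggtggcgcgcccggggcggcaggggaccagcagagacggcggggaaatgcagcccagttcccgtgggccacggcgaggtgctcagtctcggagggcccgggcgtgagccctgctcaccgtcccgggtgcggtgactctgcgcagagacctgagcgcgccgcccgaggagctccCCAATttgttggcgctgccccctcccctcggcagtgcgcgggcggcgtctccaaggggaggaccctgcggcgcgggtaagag

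Col4a3 and Col4a4, chains of the basement membranes of kidney, lung and other specialised epithelia, were lower in every cKO mouse. Col4a4 (chr1:82448423-82586849) measured 2.19, 2.29 and 1.92 CPM in cKO mice and 4.39, 4.07 and 4.68 CPM in controls. The log2 fold change was -1.04 (SE 0.14), or 0.487 times the control level (edgeR adjusted p = 0.0614; DESeq2 adjusted p = 7.37e-08). Col4a3 (chr1:82586921-82722059) measured 0.746, 0.704 and 0.528 CPM in cKO mice and 1.62, 1.58 and 2.18 CPM in controls, a log2 fold change of -1.44 (SE 0.22), or 0.369 times the control level and resting on 33.1 to 49.9 counts in cKO mice and 87.2 to 129 in controls (edgeR adjusted p = 0.0669; DESeq2 adjusted p = 4.24e-05). Both DESeq2 calls held in all 6 fits that left out a mouse and were lost with late enamel genes as a covariate. These genes too start back to back, 72 bases apart on chromosome 1. A share of 5.65% of the exonic bases of Col4a3 lies antisense to C430014B12Rik, and the labels do not say whether the libraries kept strand.

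Col4a5 and Col4a6, the X-linked pair, followed single mice rather than the groups. Col4a5 measured 65.9 to 111 CPM in cKO mice and 47.1 to 92.7 CPM in controls, and Col4a6 25.6 to 52.5 CPM and 18.6 to 39.8 CPM. Both were highest in cKO 3 and lowest in control 3, with log2 fold changes of 0.16 (SE 0.29) and 0.28 (SE 0.34). The sign of Col4a6 turned without cKO 3, and that of Col4a5 without cKO 3 or without control 3.

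**Figure D4:**
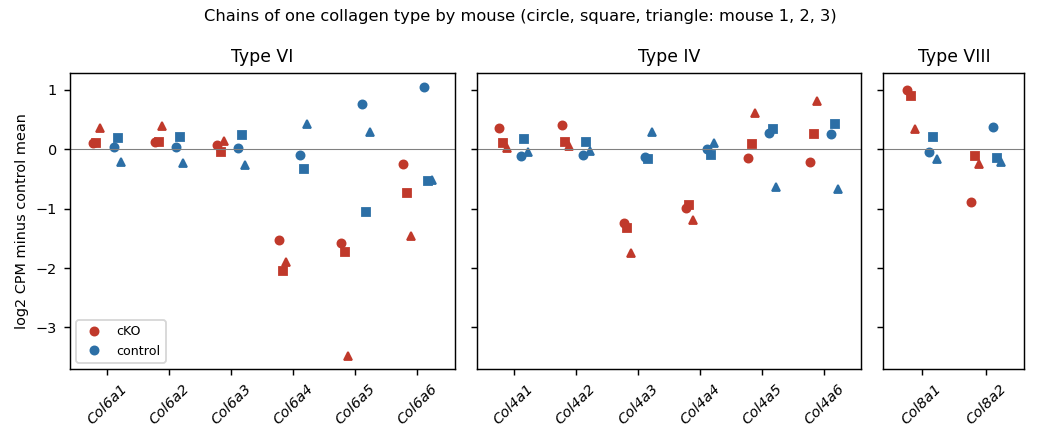
Log2 CPM of each mouse minus the control mean (y axis) for the chains of types VI, IV and VIII, cKO (red) left of control (blue). Col6a4, Col4a3 and Col4a4 lie well below 0 in all cKO mice, while Col6a1, Col6a2, Col4a1 and Col4a2 scatter around 0 and Col8a1 and Col8a2 part.

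Among the network chains Col8a1 and Col8a2, which make type VIII collagen of vessel walls and of the membrane behind the cornea, went apart. Col8a1 (chr16:57624258-57754737) measured 176, 163 and 112 CPM in cKO mice and 84.9, 102 and 78.7 CPM in controls, all cKO mice being higher. The log2 fold change was 0.76 (SE 0.18), a 1.70-fold higher level (edgeR adjusted p = 0.107; DESeq2 adjusted p = 0.00118), and the DESeq2 call held in all 6 fits that left out a mouse. Col8a2 measured 41.1, 70.5 and 64.2 CPM in cKO mice and 98.5, 68.3 and 65.3 CPM in controls, with overlap (-0.40, SE 0.23; edgeR adjusted p = 0.425). The ratio of Col8a1 to Col8a2 counts was 4.29, 2.31 and 1.74 in cKO mice and 0.862, 1.49 and 1.21 in controls. Col10a1, the collagen of hypertrophic cartilage, stayed at 0.612 to 0.705 CPM in cKO mice and 0.503 to 0.977 CPM in controls (log2 fold change -0.25, SE 0.28). The RefSeq window of Col8a1 (GRCm38.p6, chr16:57754688-57754987, minus strand) is shown because it holds the RUNX letters TGTGGT once, in capitals. A match is no evidence of binding.

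Col8a1: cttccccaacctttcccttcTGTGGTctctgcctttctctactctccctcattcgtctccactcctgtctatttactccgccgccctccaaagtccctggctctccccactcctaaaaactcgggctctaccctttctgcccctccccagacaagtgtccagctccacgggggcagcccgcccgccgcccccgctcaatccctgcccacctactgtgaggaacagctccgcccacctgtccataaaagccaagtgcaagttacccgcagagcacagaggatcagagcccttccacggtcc

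Smooth muscle markers (Acta2, Cnn1, Myh11 and Tagln), which belong to vessel walls among other places, summed to 106 to 153 CPM in cKO mice and 230 to 383 CPM in controls, opposite to Col8a1. Endothelial markers (Cdh5, Kdr, Pecam1 and Tie1) summed to 420 to 443 CPM in cKO mice and 342 to 368 CPM in controls. Their part in the collagen values was not tested.

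Collagens of the epithelial attachment went opposite ways. Col7a1 (chr9:108953586-108984875), the anchoring fibril collagen that ties basement membranes to the matrix below, measured 198, 146 and 155 CPM in cKO mice and 114, 129 and 127 CPM in controls, without overlap (log2 fold change 0.43, SE 0.12; edgeR adjusted p = 0.142; DESeq2 adjusted p = 0.0213). The DESeq2 call was lost without control 1, control 2 or control 3, and with sex as a covariate. Col17a1, the transmembrane collagen of hemidesmosomes, measured 370.1, 317 and 294 CPM in cKO mice and 350.1, 404 and 469 CPM in controls (-0.32, SE 0.13; edgeR adjusted p = 0.273), with overlap. Epithelial markers did not separate the groups in either direction: Krt14 had a log2 fold change of 0.38 and Epcam one of -0.40, each with overlapping groups.

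The transmembrane collagens of other cells showed no separation. Col23a1 measured 216, 251 and 289 CPM in cKO mice and 229, 251 and 157 CPM in controls (log2 fold change 0.25, SE 0.18). Col25a1, a collagen of neurons and muscle innervation, measured 67.1, 77.7 and 111 CPM in cKO mice and 76.2, 88.9 and 41.9 CPM in controls (0.31, SE 0.29). Col13a1, a collagen of cell contacts, measured 6.63, 4.58 and 5.86 CPM in cKO mice and 3.57, 4.83 and 4.8 CPM in controls (0.37, SE 0.18). The groups overlapped for each of these 3 genes, and Col23a1 and Col25a1 had control 3 as their lowest mouse and cKO 3 as their highest.

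The multiplexins are basement membrane collagens with endostatin-like ends. Col15a1 (chr4:47208161-47313167), found around vessels and muscle, measured 44.2, 41.0 and 41.9 CPM in cKO mice and 28.4, 35.6 and 31.6 CPM in controls, without overlap. Its log2 fold change was 0.41 (SE 0.088) (edgeR adjusted p = 0.0935; DESeq2 adjusted p = 0.00403), and its DESeq2 call held in all 6 fits that left out a mouse. The 4 endothelial markers had log2 fold changes of 0.25 to 0.34, and their groups did not overlap. Among all genes 11.1% were higher in cKO mice without overlap. The part of endothelial cells in the Col15a1 values was not tested. Col18a1 measured 172, 149 and 162 CPM in cKO mice and 131, 155 and 172 CPM in controls (0.07, SE 0.11).

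The chains outside these classes were both lower. Col26a1 (chr5:136741759-136883209) measured 136, 109 and 96.3 CPM in cKO mice and 143, 173 and 147 CPM in controls (log2 fold change -0.44, SE 0.14; edgeR adjusted p = 0.178; DESeq2 adjusted p = 0.0465), a DESeq2 call that held in 1 of the 8 refits. Col28a1, a collagen of peripheral nerve, measured 2.37, 2.62 and 2.96 CPM in cKO mice and 3.59, 3.01 and 4.36 CPM in controls (-0.46, SE 0.18; edgeR adjusted p = 0.251). Neither overlapped between groups. Schwann cell markers summed to 29.8 to 40.2 CPM in cKO mice and 32.1 to 60.6 CPM in controls.

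Across mice the extremes were uneven. The highest value of a collagen gene fell to cKO 3 for 17 genes and the lowest to control 3 for 19, whereas control 2 was the lowest for 0 and cKO 2 the highest for 1. The plot of all chains by mouse shows these extremes.

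**Figure D5:**
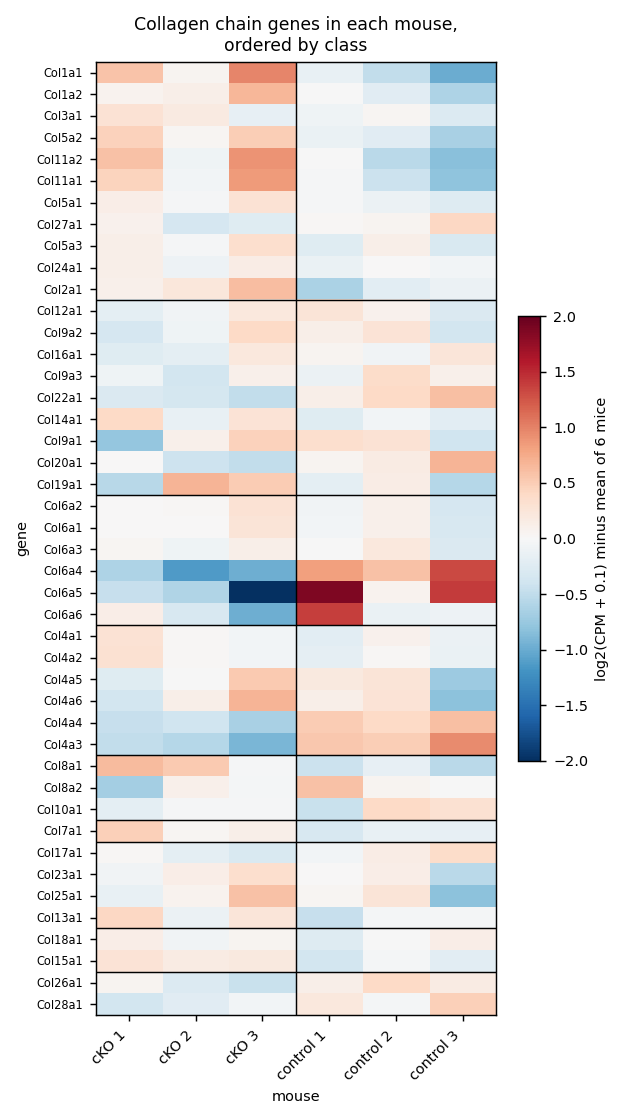
Log2(CPM + 0.1) of the 44 genes (rows, by class) in each mouse (columns, cKO left of control) minus the mean of the 6 mice, from -2 (blue) to 2 (red), with values beyond drawn at the ends. cKO 3 and control 3 hold most of the extremes of the fibrillar chains, and Col6a4, Col6a5, Col4a3 and Col4a4 are blue in all cKO mice.

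Of the enzymes and carriers that make collagen none passed edgeR over all genes, while DESeq2 called 6 higher and 3 lower. Those calls were 28.1% of them, against 7.48% of all genes for which DESeq2 gave an adjusted p. Of 32 tested, 22 had a log2 fold change above 0, with a median of 0.19. At an unadjusted edgeR p under 0.05 14 were higher and 4 lower, or 56.2%, against 17.3% of all genes. The lowest p among them belonged to P3h2, a prolyl hydroxylase, with 25.5, 21.3 and 21.1 CPM in cKO mice and 11.8, 15.3 and 9.00 CPM in controls (log2 fold change 0.91, edgeR adjusted p = 0.0900, DESeq2 adjusted p = 0.000252), followed by Loxl4, an enzyme of the lysyl oxidase family that cross-links collagen (1.22, edgeR adjusted p = 0.110, DESeq2 adjusted p = 0.00035), and Bmp1, the protease that trims fibrillar procollagens (0.64, edgeR adjusted p = 0.114, DESeq2 adjusted p = 0.00222). Of 10 collagen receptor genes 9 were tested, and 6 were above 0 with a median of 0.24. An unadjusted edgeR p under 0.05 was found for 1 of them, or 11.1%, against 17.3% of all genes.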

How the data were processed

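RNA of the proximal incisor of 3 cKO and 3 control mice was read in single-end runs of 75 cycles, per the labels' protocols. The deposited table holds estimated counts per gene, not scaled; STAR 2.6.1d, Partek and mm10 stand in the submitters' processing notes, and annotation and counting settings are not given in the sources used. Between 45.6% and 48.0% of values were whole (tolerance 1e-09). A second deposited table of scaled values was not used. Estimated counts were rounded. Genes passing filterByExpr (minimum count 10, minimum total 15) numbered 19264. TMM scaling and the quasi-likelihood test of edgeR 4.0.16 (R 4.3.3) were applied to all 6 mice, two-sided and without covariates, and p-values were adjusted by Benjamini-Hochberg over every gene tested; DESeq2 1.42.0 was the alternative. SE is the fold change over the root of F. Scripts were tested on counts simulated from these data, with changes planted in some genes. There edgeR recovered 61.9% of the smaller and 90.9% of the larger planted changes, with 10 false calls among 18980 genes. DESeq2 recovered 74.2% and 92.9%, with 63 false calls, so its calls are the less strict. At these depths 1 count was worth 0.0149 to 0.0186 CPM. Lengths are those of APPRIS principal transcripts in GENCODE M21 (GRCm38), which need not be the annotation counted. Deposited mm10 coordinates were moved back by 1 at the end, so that it names the final base of the gene. Pairs of mice within a group differed beyond counting noise (chi-square per degree of freedom 49.1 to 80.6), so none was a second reading of the same library. The labels give no batch, and replicate numbers follow accession order.

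Members, classes and marker lists were chosen with earlier results of these data known. Values per mouse are given for genes past 0.05 in either test and, per class, for the 2 most abundant and the 2 of lowest p, or all in small classes. Col3a1, Col5a1, Col2a1, Col6a6 and the ratios of chains were added to these after their values were seen.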

Additional observations from a re-analysis of the deposited data

How the results depend on the processing

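No paired analysis was possible because the labels share no replicate number between the groups. Counts of collagen genes past edgeR's threshold were 0 under upper-quartile or RLE scaling, without a filter, with a filter at 1 CPM, and with a covariate for sex or for late enamel genes; leaving out each mouse gave 0 higher and 0 to 1 lower. DESeq2 called 7 higher and 6 lower, and 1327 of all genes. Repeated after the data were seen, it called 7 to 13 without each mouse (718 to 1279 of all genes). It called 12 with the sex covariate (1148 of all genes) and 1 (Col6a4) with late enamel genes (81 of all genes). With the late enamel covariate the lowest edgeR adjusted p was 0.788, and the median of all 44 genes was 0.0052, that of type IV -0.068 and that of the transmembrane class 0.0077. Other medians that moved by more than the spread between mice were the network class (0.19 with a filter of 1 CPM, which removed Col10a1) and type VI (-0.084 with the sex covariate, and 0.039 with Col6a5 and Col6a6 counted as 1 gene, chosen after seeing the data). Without each mouse in turn the medians ran from 0.36 to 0.67 (fibrillar), -0.30 to 0.048 (FACIT), -0.64 to -0.079 (type VI), -0.060 to 0.26 (type IV), -0.28 to -0.077 (network), 0.060 to 0.41 (transmembrane), 0.29 to 0.53 (Col7a1), 0.16 to 0.29 (multiplexin), -0.48 to -0.39 (other) and 0.060 to 0.26 (all 44). The difference in share kept its direction for Col1a1 and each class under every alternative run. With Col6a5 and Col6a6 merged, type VI had an odd number of chains and its median was the value of Col6a3. The cause of the other moves of medians was not tested. Of 613 values of single genes under 14 alternatives, 28 changed sign, in 11 genes. These were Col9a2 (0.0025 with upper-quartile scaling, 0.0019 without a filter, 0.0056 with a filter of 1 CPM, 0.042 with sex), Col12a1 (0.081 with sex), Col18a1 (-0.025 with sex), Col9a1 (0.023 with sex), and with late enamel genes Col16a1 (0.063), Col25a1 (-0.017), Col3a1 (-0.00077), Col4a1 (-0.055), Col4a5 (-0.082) and Col6a3 (-0.21). Leaving out each mouse, values ran from -0.24 to 0.15 for Col9a2, -0.18 to 0.085 for Col12a1, -0.39 to 0.18 for Col9a1, -0.095 to 0.32 for Col4a5, -0.032 to 0.50 for Col4a6, -0.081 to 0.17 for Col6a3 and -0.020 to 0.16 for Col18a1. Genes of few counts, such as Col19a1 and Col10a1, are limited by depth.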
